A study of Schizosaccharomyces pombe with 2 samples.

Results

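Splicing of 5 genes of meiosis in vegetative fission yeast is described here: dmc1 (SPAC8E11.03c), mfr1 (SPBC1198.12), mde2 (SPBC31F10.08), bqt1 (SPAC6G9.13c) and bqt3 (SPCC594.07c). They are 5 of the 1144 genes in the deposited counts, taken by RefSeq symbol and matched on the systematic ID, and all 5 were found in both libraries. They were chosen by their unspliced shares in these same libraries, so those shares are a description without a test. The study used wild-type Schizosaccharomyces pombe and MPE-seq, a multiplexed form of primer extension read by sequencing, in which primers to chosen transcripts start reverse transcription next to introns. Its 1 group holds 2 libraries, replicate 2 and replicate 1, both of the Bioneer WT strain in log phase in the rich medium YES, at 30 °C and an OD600 of 0.8. Mating type and ploidy are not in the labels, and nothing in them ties the libraries to separate cultures, so the spread between them may be technical. Primers and read classes were the authors', and a gene is seen only at its targeted intron.

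Meiosis in fission yeast follows mating under nitrogen starvation, and rich medium keeps cells in the vegetative cycle. Meiotic prophase brings programmed DNA breaks, their repair on the homologous chromosome, and a bouquet in which all telomeres gather at the spindle pole body. In vegetative cells many meiotic transcripts are made at a low level, some are destroyed by the RNA-binding protein Mmi1 and the nuclear exosome, and introns of a few known genes are removed mainly in meiosis. Dmc1 is the meiotic strand-exchange protein, and Mde2 acts earlier, in forming the breaks. Mfr1 switches on the anaphase-promoting complex, a ubiquitin ligase, late in meiosis. Bqt1 is part of the link between telomeres and the spindle pole body. Bqt3 sits in the inner nuclear membrane and stabilises Bqt4, which anchors telomeres there in vegetative cells too.

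RefSeq (assembly ASM294v3) gives each of these genes exactly 1 intron, within the coding sequence. The authors' build is not given in the sources used here and the counts carry no coordinates, so positions and sequences are those of RefSeq. The introns are shown because the unspliced percentages rest on whether they were removed. Capitals mark the 5′ splice site (first 6 bases), the last CTAAC or CTAAT, which is the form of the yeast branch site, and the last 3 bases.
dmc1: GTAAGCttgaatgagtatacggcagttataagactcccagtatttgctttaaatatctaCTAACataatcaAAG
mfr1: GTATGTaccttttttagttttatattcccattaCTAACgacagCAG
mde2: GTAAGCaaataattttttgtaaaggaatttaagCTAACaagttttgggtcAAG
bqt1: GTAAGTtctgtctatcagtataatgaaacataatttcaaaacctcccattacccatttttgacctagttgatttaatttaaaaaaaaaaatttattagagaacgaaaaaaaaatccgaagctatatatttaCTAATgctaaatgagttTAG
bqt3: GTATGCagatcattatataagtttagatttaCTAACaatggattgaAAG

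The introns lie on chromosome I from 3382405 to 3382478, plus strand (dmc1, 74 nt), chromosome II from 194799 to 194844, plus strand (mfr1, 46 nt), chromosome II from 3765438 to 3765490, plus strand (mde2, 53 nt), chromosome I from 3272266 to 3272416, minus strand (bqt1, 151 nt), and chromosome III from 368791 to 368839, minus strand (bqt3, 49 nt). The median of the 1078 genes with 1 intron was 68 nt, with quartiles of 51 and 126 nt. The intron of bqt1 was above the upper quartile and those of mfr1 and bqt3 were below the lower one. Their GC content ran from 25.2% (bqt1) to 32.6% (mfr1), around the median of 29.2%. The spacing from the second A of the branch form to the end of the intron was 11 nt in dmc1, 9 nt in mfr1, 16 nt in mde2, 16 nt in bqt1 and 14 nt in bqt3, against a median of 12 nt over the 805 introns with such a form.

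At the splice sites, the spliced gene bqt3 and the unspliced dmc1 and mde2 shared less common letters. All 3 ended in AAG, the ending of 8.26% of the 1078 introns, while mfr1 ended in CAG (14.3%) and bqt1 in the most common TAG (77.3%). At the 5′ end, dmc1 and mde2 began with GTAAGC (4.36% of introns) and bqt3 with GTATGC (2.78%). The intron of mfr1 began with GTATGT (23.9%) and that of bqt1 with GTAAGT, the most common form (35.3%). CTAAC was present in dmc1, mfr1, mde2 and bqt3 and in 51.4% of all introns, and bqt1 had CTAAT in its place. Among measured genes with 1 intron and leaving out the 5 genes, the median was 10.9% unspliced over 63 introns ending in AAG. It was also 10.9% over 109 ending in CAG, against 6.69% over 659 ending in TAG. It was 9.13% over 33 introns beginning with GTAAGC and 7.31% over 20 with GTATGC, against 5.17% over 201 with GTATGT and 8.21% over 305 with GTAAGT.

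The position of the intron in the message differed. It follows 73 coding nt in dmc1, 121 in mfr1, 156 in bqt3, 283 in bqt1 and 618 in mde2, where it lies toward the end of the reading frame. Translated in silico with the intron kept, dmc1 would end after 28 codons in place of 332 and mfr1 after 45 in place of 421. The frame of mde2 would end after 209 codons in place of 278 and that of bqt1 after 101 in place of 132. In these 4 the first stop lay inside the intron, as in 915 of the 1003 genes with a coding intron (91.2%). In bqt3 the kept intron shifts the frame, and the stop lies beyond it, after 121 codons in place of 255. No protein was measured.

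**Figure D1:**
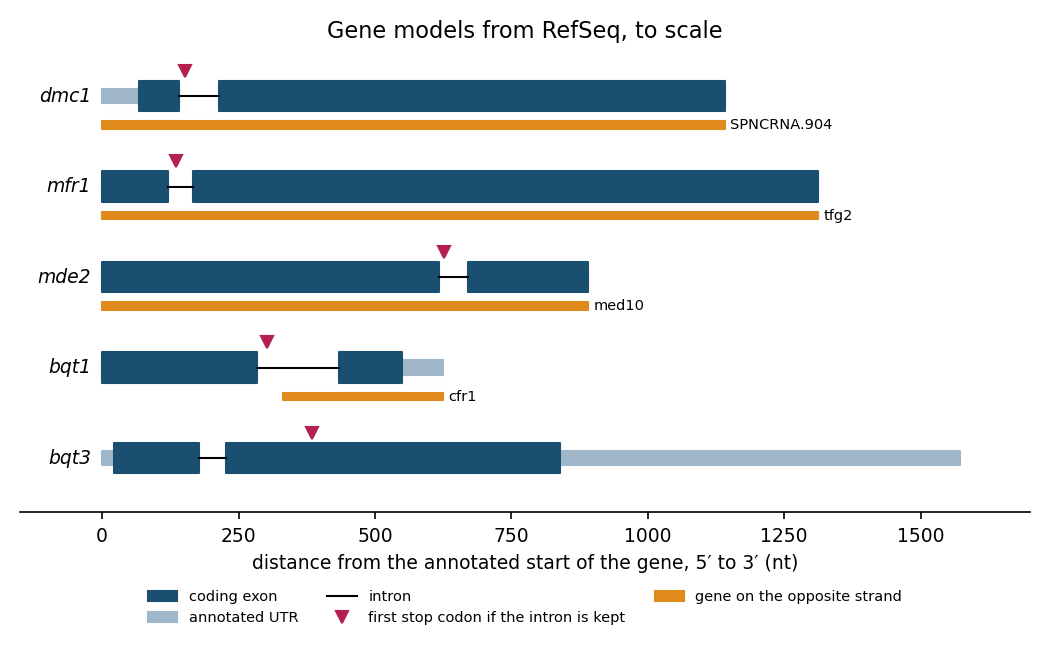
Gene models of the 5 genes from RefSeq, drawn 5′ to 3′ to scale in nt from the annotated start, with coding exons, annotated UTRs, the intron, the first stop codon if the intron is kept, and any gene annotated on the opposite strand within the span of the gene. An opposite-strand gene covers all or part of the intron in dmc1, mfr1, mde2 and bqt1 and is absent from bqt3.

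The libraries differ in depth, with 10009017 exonic, 1194460 mature and 82204 premature counts in replicate 2 and 5796068, 634306 and 53090 in replicate 1. From the class names, mature counts were read as spliced and premature counts as unspliced. A gene counted as measured with at least 50 mature plus premature counts in each library, which 864 genes reached, all 5 described here among them. The unspliced percentage is premature over mature plus premature counts, and its median over the 864 genes was 7.39% in replicate 2 and 7.76% in replicate 1. Intervals are 95% Wilson intervals, which cover counting error only, since without known molecular identifiers amplified reads are not independent molecules.

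Spliced message of the recombination gene dmc1 was almost absent. It had 77 premature and 1 mature counts in replicate 2, against 65 premature and 0 mature counts in replicate 1. The unspliced percentage was 98.7% (93.1 to 99.8) in replicate 2 and 100% (94.4 to 100) in replicate 1. Taken as 3 counts of the total, a one-sided limit that lies inside the two-sided Wilson bound, the 0 in replicate 1 allows a spliced share of up to 4.62%. Both libraries together thus held 1 spliced read of dmc1, beside 1690 exonic counts.

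The other recombination gene, mde2, gave a few more spliced reads. Replicate 2 held 176 premature and 15 mature counts, and replicate 1 held 120 and 4. This is 92.1% unspliced (87.4 to 95.2) in replicate 2 and 96.8% (92.0 to 98.7) in replicate 1, with a mean of 94.5% ± 3.27 (SD, n = 2). Its intervals overlap each other, and the one in replicate 2 reaches lower than either interval of dmc1.

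The activator gene mfr1 had almost the counts of dmc1. There were 77 premature and 1 mature counts in replicate 2, and 60 and 0 in replicate 1. Its unspliced percentage was 98.7% (93.1 to 99.8) in replicate 2 and 100% (94.0 to 100) in replicate 1, where the same limit of 3 counts allows a spliced share of up to 5.0%. The mean was 99.4% ± 0.907 (SD, n = 2), the same as for dmc1. The equal means come from equal counts in replicate 2 and 0 mature counts in replicate 1.

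The bouquet genes stood at opposite ends. For bqt1, 109 premature and 3 mature counts in replicate 2 stood beside 73 and 7 in replicate 1, which is 97.3% unspliced (92.4 to 99.1) and 91.2% (83.0 to 95.7). For bqt3, 7 premature and 196 mature counts in replicate 2 stood beside 7 and 165 in replicate 1, which is 3.45% (1.68 to 6.95) and 4.07% (1.99 to 8.16). In both libraries the intervals of bqt3 were far from those of the other 4 genes, and this contrast is the one by which the genes were picked. The mean was 94.3% ± 4.29 for bqt1 and 3.76% ± 0.439 for bqt3 (SD, n = 2 each).

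**Figure D2:**
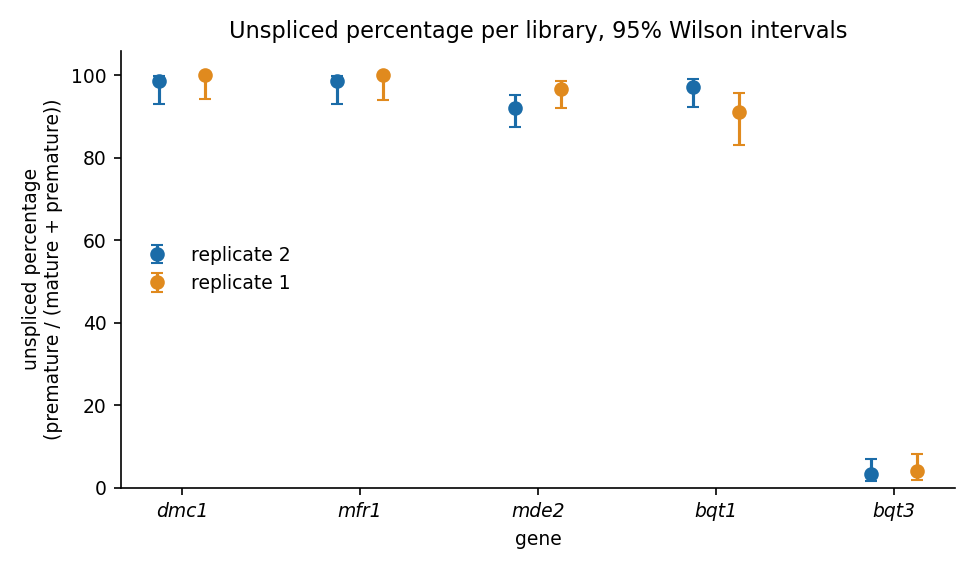
Unspliced percentage of each gene in replicate 2 and replicate 1 (points) with 95% Wilson intervals (bars). In both libraries dmc1, mfr1, mde2 and bqt1 lie between 91.2% and 100%, and bqt3 at 3.45% and 4.07%.

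Among the 864 measured genes, counted down from the highest unspliced percentage, dmc1 and mfr1 shared rank 16 in replicate 2 and rank 1 in replicate 1, ties included. The rank of mde2 was 31 in replicate 2 and 24 in replicate 1, and that of bqt1 was 20 and 34. These 4 were among the 35 genes above 90% on the mean of both libraries, or 4.05% of all measured. The ranks and this share include genes without a RefSeq intron, such as ppt1 and cwf22, both at 100%. Of the 838 measured genes with 1 intron, 22 (2.63%) lay above 90%, these 4 among them. With ranks of 590 and 571, bqt3 was a gene below the median. The order among the 4 is not settled, since their intervals overlap and bqt1 and mde2 changed places between the libraries.

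No difference between the libraries in the unspliced percentage of the 5 genes passed the test. The difference of replicate 2 minus replicate 1 was -1.28 percentage points for dmc1 (95% interval -6.91 to 4.397), -1.28 for mfr1 (-6.91 to 4.83), -4.63 for mde2 (-9.72 to 1.03), 6.07 for bqt1 (-0.547 to 14.5) and -0.621 for bqt3 (-5.08 to 3.45). By the two-sided Fisher exact test with Benjamini-Hochberg adjustment over all 864 genes, 0 of the 5 passed at 0.05, against 1.62% of all genes tested. None passed without adjustment, the lowest p being 0.0966 for bqt1 and 0.144 for mde2, nor with a chi-square scaled by the overdispersion between the libraries. The intervals leave room for differences of up to 14.5 points in bqt1.

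Both classes were also set against exonic counts. Premature counts enter the share by which the genes were chosen, so these values are a description and no separate support. Mature plus premature counts of the 4 unspliced genes lay near or above the median relative to exonic counts. Mature and premature counts together were 7.51% and 9.98% of the exonic count in dmc1 (replicate 2 and replicate 1), 10.6% and 13.04% in mfr1, 14.4% and 13.996% in mde2, and 23.6% and 30.0% in bqt1. In bqt3 they were 3.87% and 4.91%. The median of the 864 genes was 7.51% in replicate 2 and 7.53% in replicate 1, with an upper quartile of 13.1% and 13.4%. The values of bqt1 and mde2 lay above the upper quartile in both libraries and that of bqt3 below the lower quartile of 4.32% in replicate 2, but not below the 4.43% of replicate 1.

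Per 1000 exonic counts, bqt1 gave the most premature reads of the 5 genes, 230 in replicate 2 and 273 in replicate 1. The same measure was 133 and 135 in mde2, 104 and 130 in mfr1, and 74.1 and 99.8 in dmc1. It was 1.34 and 1.999 in bqt3, against a median over measured genes of 4.64 and 5.29. Mature reads per 1000 exonic counts were 37.4 and 47.1 in bqt3, below the median of 60.0 and 58.5, and were 0.962 and 0 in dmc1, 1.36 and 0 in mfr1, 11.3 and 4.51 in mde2, and 6.33 and 26.2 in bqt1. Spliced reads were the more frequent in replicate 2 for mde2 and the less frequent there for bqt1.

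**Figure D3:**
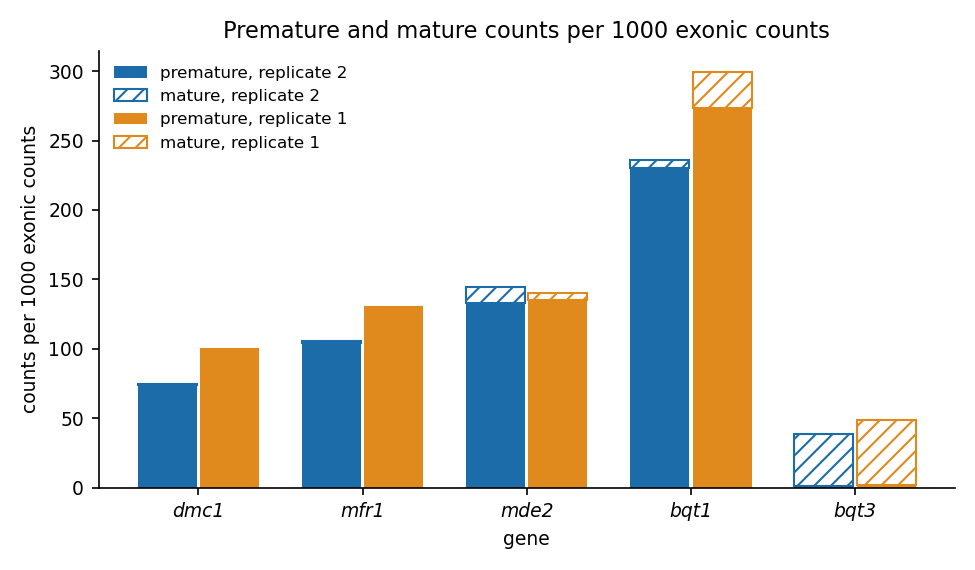
Premature (filled) and mature (hatched) counts per 1000 exonic counts of the same gene, in replicate 2 and replicate 1. The bars of dmc1, mfr1, mde2 and bqt1 are nearly all premature, up to 273 in bqt1, and those of bqt3 nearly all mature, at 37.4 and 47.1.

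All 4 unspliced genes had low exonic levels. Exonic counts, scaled to the library total as CPM and divided by the kb of annotated exon, were 97.3 in replicate 2 and 105 in replicate 1 for dmc1, 58.2 and 62.7 for mfr1, 158 and 183 for mde2, and 100.1 and 97.4 for bqt1. The level of bqt3 was 344 and 397, above the median of measured genes at 294 and 315. Levels of different genes also depend on their primers, which this scale does not correct. On this scale dmc1 and bqt1 were not told apart, because their order differed between the libraries, and mfr1 was lowest and bqt3 highest in both. The order among the low genes depended on the division by exon length. In CPM alone bqt1 was lowest, at 47.4 in replicate 2 and 46.1 in replicate 1. There mfr1 was at 73.6 and 79.4, and dmc1 at 104 and 112.

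The 838 measured genes with 1 intron were divided into 4 bins of like size by exonic CPM per kb of exon. The 4 unspliced genes fell in the lowest bin, where the median unspliced percentage of the 210 genes was 16.04%. In that bin 16 genes (7.62%) lay above 90%, these 4 among them. Leaving the 4 out, the median was 15.3% over 206 genes, with 12 (5.83%) above 90%. In the third bin, which holds bqt3, the median was 5.43% over 209 genes, beside 3.76% for bqt3. As the premature count of a gene relates to its exonic count, these are descriptions across genes and carry no test.

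**Figure D4:**
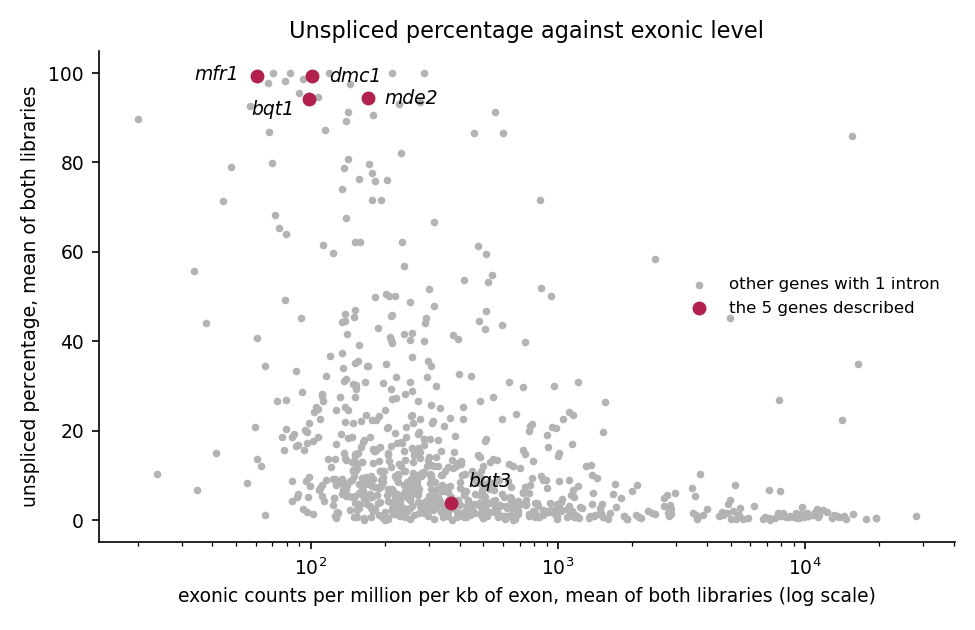
Unspliced percentage (mean of both libraries) against exonic CPM per kb of exon (mean of both libraries, log scale) for the 838 measured genes with 1 intron. The genes dmc1, mfr1, mde2 and bqt1 lie at the top left, and bqt3 lies in the dense band of spliced genes.

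Between the libraries the exonic level differed by little. The log2 ratio of replicate 2 over replicate 1, scaled to library totals, was -0.11 for dmc1 (95% interval -0.26 to 0.03), -0.11 for mfr1 (-0.28 to 0.06), -0.21 for mde2 (-0.33 to -0.09), 0.04 for bqt1 (-0.18 to 0.26) and -0.21 for bqt3 (-0.27 to -0.14). The median of all genes on this scale was -0.13, so that dmc1 and mfr1 moved like the bulk. By the two-sided exact binomial test, adjusted over 1093 genes, 2 of the 5 passed, mde2 (adjusted p = 0.00159) and bqt3 (adjusted p = 3.78e-10), against 72.7% of all genes tested. The share of the 5 that passed is below that background, but this test passes small differences more readily at high counts. The genes not called had the fewest exonic counts over both libraries, 1690 (dmc1), 1197 (mfr1) and 741 (bqt1). Those called had 2209 (mde2) and 8741 (bqt3). With DESeq2 size factors, which bring the median near 0, mde2 was at -0.08 (adjusted p = 0.320) and bqt3 at -0.08 (adjusted p = 0.0411) by the same exact test, and dmc1 and mfr1 both turned to 0.02. On that scaling 403 of the 1093 genes passed.

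The same 4 genes had an annotated gene on the opposite strand over their introns. In RefSeq the whole of dmc1 lies within the long noncoding RNA gene SPNCRNA.904 on the other strand. The whole of mfr1 lies within the annotated span of tfg2, for a subunit of transcription factor TFIIF, and the whole of mde2 within that of med10, for a Mediator subunit. In bqt1, 292 of 624 nt and 102 of the 151 nt of the intron lie within cfr1, for a CHS5-like protein. The introns of mfr1 and mde2 and the overlapped part of the bqt1 intron lay in an annotated exon of tfg2, med10 and cfr1, 3′ of the coding sequence of each. None of these 4 partners was among the 1144 genes, and bqt3 overlapped no annotated gene.

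The primers of MPE-seq are made to copy RNA of the targeted strand, but the strand setting of the counting is not given in the sources used here, so reads of a gene and of its opposite-strand partner cannot be told apart in these counts, and the part of the partners in the 4 values was not tested. Such overlap was common. Of all 1078 genes with 1 intron, 637 (59.1%) had an opposite-strand gene over the intron. Among measured genes, the 488 introns with one had a median of 9.12% unspliced and the 350 without one 5.22%. Above 90% lay 19 of the 488 (3.89%), 4 of them described here, and 3 of the 350 (0.857%). Leaving out the 5 genes, the medians were 9.03% and 5.23%. Among coding introns only, as in the 5 genes, and without these genes, 10 of 452 with an opposite-strand gene (2.21%) lay above 90%. Without such a gene it was 3 of 327 (0.917%).

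Within the lowest bin of exonic level, which holds dmc1, mfr1, mde2 and bqt1, 137 introns with an opposite-strand gene had a median of 23.5%, with 15 above 90%, and 73 without one had a median of 11.1%, with 1 above 90%. Leaving out dmc1, mfr1, mde2 and bqt1, the 133 other introns with an opposite-strand gene had a median of 21.7%, with 11 above 90%. In the highest bin the medians were 2.38% over 112 introns and 2.09% over 98. This grouping was chosen after the values of the genes were seen, and introns are not independent replicates, so no test is given.

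**Figure D5:**
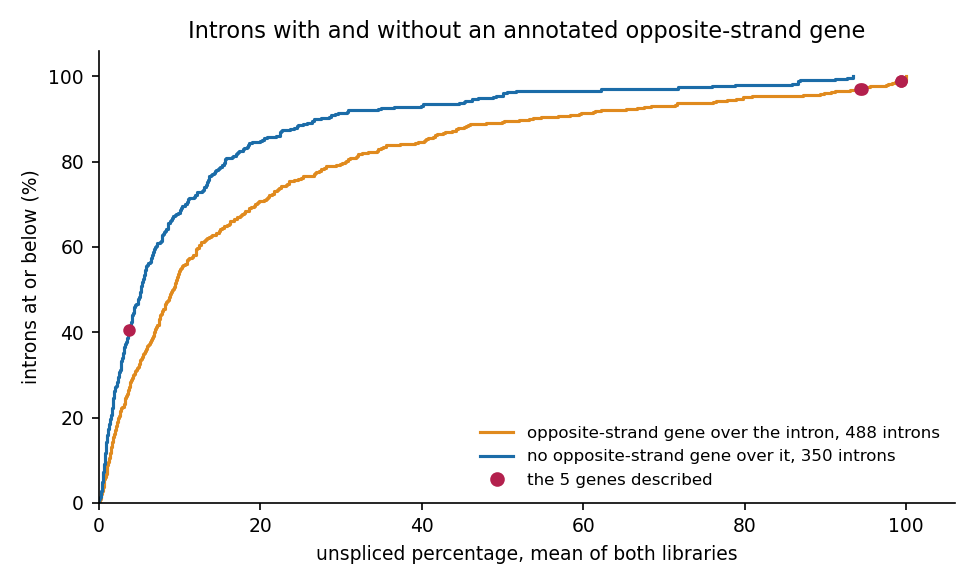
Share of introns at or below each unspliced percentage (mean of both libraries), for 488 introns with an annotated opposite-strand gene over them and 350 without. The points for dmc1, mfr1, mde2 and bqt1 lie at the top of the first curve, and bqt3 lies at 3.76% on the second.

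Motifs of meiotic regulation were looked for by their letters alone. GTAAACA, the core bound by the meiotic forkhead factor Mei4, was searched on both strands from 250 bases before to 50 after the annotated start. It was found once each in dmc1, mfr1 and mde2, and not in bqt1 or bqt3, against 211 of 1141 genes (18.5%). Each match read TGTTTAC on the strand of the gene, beginning 189 bases before the annotated start of dmc1, 204 before that of mfr1 and 94 before that of mde2. The annotated start of mfr1, mde2 and bqt1 is their start codon, so their windows lie differently to transcription. The matches are shown in capitals with 10 bases on each side, on the strand of the gene.
dmc1: acgcgttcatTGTTTACatgtagctgc
mfr1: agcaaatgttTGTTTACtgcagtcatt
mde2: tgagtttgttTGTTTACattccatacc

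Measured genes with 1 intron and this motif had a median of 7.77% unspliced over 152 genes, against 7.39% over 686 without it. Above 90% lay 9 (5.92%), 3 of them described here, against 13 (1.90%), with bqt1 among them. Leaving out the 5 genes, the medians were 7.56% over 149 genes and 7.39% over 684. Then 6 (4.03%) against 12 (1.75%) lay above 90%. TTCTTTGTT, part of the box bound by the HMG factor Ste11, was in none of the 5 windows, searched on both strands, and in 16 of 1141 genes (1.40%). For Mmi1, only the exact letters TTAAAC, which it binds as RNA, were searched, on the strand of the gene. They occurred once each in the annotated pre-mRNA of dmc1, mfr1 and bqt3, and not in mde2 or bqt1. They were present in 571 of 1141 genes (50.04%), and these exact letters did not divide the unspliced genes from bqt3. Other forms were not searched, and the part of Mmi1 in these values was not tested.

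Other genes of recombination were less uniform. Of a list of recombination genes, 13 were in the counts and 9 were measured, with a median of 62.2% unspliced against 7.63% over all 864 genes, and 5 of the 9 lay above 50%. Without dmc1 and mde2 the median of the other 7 was 18.5%, with 3 above 50%. After those 2 the highest was rec6, needed for break formation, at 69.5% ± 0.233 (SD, n = 2), a gene with 3 RefSeq introns whose value cannot be tied to one of them. The lowest were rec14, whose product also serves in the Ski complex, at 3.93% ± 0.681, ctp1, for an endonuclease partner in break resection, at 11.0% ± 1.15, and rad57, for a mediator of strand exchange, at 16.3% ± 1.29.

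The 4 list genes below the minimum are named after their values were seen. The gene rec24, for a protein of break formation, had 70 premature and 9 mature counts in replicate 2 and 32 and 1 in replicate 1, with no annotated opposite-strand gene over its intron. The gene rad55, for a mediator of strand exchange, had 41 and 21 in replicate 2 and 24 and 14 in replicate 1, the DNA helicase gene fbh1 had 6 and 71 in replicate 2 and 3 and 42 in replicate 1, and rec15, of break formation, had no count of either class.

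The other lists held few measured genes. Of a bouquet and horsetail list only bqt1 and bqt3 were in the counts. Of a list on the anaphase-promoting complex, mfr1 and the B-type cyclin gene cdc13, at 11.7% ± 4.47 (SD, n = 2), were measured. Of a list of regulators of meiotic transcripts, 3 were measured, with a median of 3.14%. The forkhead gene fkh2 was at 5.81% ± 3.43 and the exosome nuclease genes rrp6 and dis3 at 3.14% ± 1.55 and 2.24% ± 0.307. The synonym match also caught trr1, for thioredoxin reductase and no such regulator, at 5.93% ± 1.04, and with it the median of the 4 genes was 4.48%. Below the minimum, and named after its values were seen, was the transcription factor gene rsv2, for which RefSeq has no intron. Its counts were mostly premature, 11 beside 3 mature in replicate 2 and 6 beside 0 in replicate 1.

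For likeness, each gene was set beside the 2 other measured genes with 1 intron that were nearest in the logit of the unspliced share and log2 exonic CPM, each the mean of 2 libraries. The nearest to dmc1 were trp663, for a TRP-like ion channel protein, with 80 premature and 0 mature counts in replicate 2 and 67 and 0 in replicate 1 (distance 0.720), and SPAPB17E12.09 (0.819). SPAPB17E12.09, with 108 premature and 3 mature counts in replicate 2 and 76 and 0 in replicate 1, was also nearest to mfr1 (0.332), followed by SPAC16E8.05c, annotated as protein mde1 (0.798). The nearest to mde2 were fmd3, a formaldehyde dehydrogenase gene, at 92.7% ± 4.24 (0.319) and dao1, for D-amino acid oxidase, at 91.2% ± 2.06 (0.680). The nearest to bqt1 were meu10, for a GPI-anchored protein, at 89.8% ± 0.450 (0.853) and SPAC16E8.05c at 97.8% ± 0.456 (0.924). Those of bqt3 were much closer, the iron-sulfur protein gene isa1 at 4.10% ± 0.686 (0.0659) and the transporter gene SPAC323.07c at 4.35% ± 3.28 (0.0874). Both neighbours of bqt3, and fmd3, had no opposite-strand gene over the intron, and the other 5 had one.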

How the data were processed

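Per the file headers, the authors deposited 1 table per library with exonic, mature and premature counts of each gene, which are raw and whole. Trimmomatic 0.35, HISAT2 2.1.0 and HTSeq appear, without roles, in the submitters' processing notes. How the classes were defined is not given in the sources used here, nor are the genome build, annotation, strand setting and any molecular identifiers. A share built from separate premature and mature classes can shift with how reads were assigned, and reads of overlapping genes can add to either.

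Unspliced percentages, Wilson intervals, two-sided Fisher exact tests over 864 genes (at least 50 mature plus premature counts in each library) and exact binomial tests of exonic counts over 1093 genes (at least 50 in each) were computed in Python 3.11.15 with scipy 1.17.1, and adjusted by Benjamini-Hochberg. Intervals of a difference are Newcombe's, from the Wilson bounds. The Fisher step, tested on simulated data over 864 genes, recovered 136 of 200 genes changed by an odds ratio of 4. The simulated counts were binomial, without the overdispersion of 1.65 between the real libraries. The changed genes were drawn at random over all depths and shares, so this recovery need not hold for the 5 genes. edgeR 4.0.16 and DESeq2 1.42.0 (R 4.3.3) gave scaling factors only. RefSeq ASM294v3 matched 1141 of 1144 genes, and gaps under 20 nt were not taken as introns. Genes, lists and tests were chosen with earlier results of these data known. Named were all 5 genes, their 2 nearest genes each, and list members (all of up to 6 measured, else the 3 highest and lowest). Alternatives were count minimums of 20, 200 and none, summed counts, 0.5 added to each count, single libraries and other scalings.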

Additional observations from a re-analysis of the deposited data

How the results depend on the processing

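With 0.5 added to each count, the unspliced percentages of all 5 genes moved by less than the SD between libraries. Counts summed over both libraries gave the same, but could not have done otherwise. A summed share always lies between those of the 2 libraries. No paired analysis was possible because there is 1 group. Percentiles among measured genes (98.3 for dmc1 and mfr1, 97.0 for mde2, 96.9 for bqt1, 32.1 for bqt3) moved with the gene set. They were 97.5 for dmc1 and mfr1, 96.0 for mde2 and 29.7 for bqt3 at a minimum of 20, 96.7, 95.04 (mde2), 94.9 (bqt1) and 28.7 (bqt3) with no minimum above 0, and 99.3, 98.3 (mde2) and 98.2 (bqt1) over genes with 1 intron. With 1 library left out they ran from 97.8 to 97.9 (dmc1, mfr1), 96.1 to 97.3 (mde2), 96.2 to 97.2 (bqt1) and 30.0 to 33.99 (bqt3). None of the 5 genes reached a minimum of 200.

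Genes called as different between the libraries were 14 of 864 by the Fisher exact test and 8 with the overdispersion-scaled chi-square. For exonic counts 795 of 1093 were called, 410 with edgeR TMM and 403 with DESeq2 size factors. The exonic log2 ratio reversed to 0.012 (TMM) and 0.0163 (DESeq2) for dmc1 and to 0.0176 and 0.0219 for mfr1, and mde2 lost its call at -0.08 under both. These follow the median of all genes, which the scalings move from -0.13 to near 0.

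The list medians of 62.2% (recombination), 55.5% (anaphase-promoting complex) and 4.48% (regulators with the synonym match trr1, 3.14% without it, an alternative chosen after seeing the data) became 63.4% for recombination at a minimum of 20 and 60.6% to 63.1% with 1 library left out, 13.7% for the anaphase-promoting complex at a minimum of 20 and 14.9% to 54.3% with 1 library left out, and, with trr1 kept, 3.81% to 3.83% for the regulators with 1 library left out. At 200 trr1 alone was left of that list, at 5.93%. The medians of 62.2% and 55.5% include genes chosen for their shares. Without dmc1 and mde2 the recombination median was 18.5% over 7 genes. The 55.5% rests on 2 genes, mfr1 at 99.4% and cdc13 at 11.7%. Introns with an opposite-strand gene had 9.61% at a minimum of 20 and 5.54% at 200, and those without one 2.99% at 200. The widest interval of the 5 genes was that of bqt1 in replicate 1, 83.0 to 95.7 with 80 counts. The fewest counts were the 60 of mfr1 in replicate 1.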

Other observations

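A pair of genes with meiosis-dependent splicing in earlier work on fission yeast were below the count minimum and are given as values. The gene mes1 (SPAC5D6.08c), for an inhibitor of the anaphase-promoting complex, had 0 premature and 50 mature counts in replicate 2, which allows up to 6.0% unspliced by the one-sided limit of 3 counts (95% Wilson interval 0 to 7.13), and 1 and 38 in replicate 1, or 2.56% (95% Wilson interval 0.454 to 13.2). RefSeq places an opposite-strand gene over its intron of 75 nt too. In these counts mes1 thus read as spliced, unlike dmc1, mfr1, mde2 and bqt1. The meiotic cyclin gene rem1 (SPBC16E9.17c) had 7 premature and 4 mature counts in replicate 2 and 6 and 0 in replicate 1, too few to place it.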
